A study of Homo sapiens with 18 samples.

Results

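The GABA-A receptors and the ionotropic and metabotropic glutamate receptors were examined in histone methylation maps of V16D cells. These were 39 of the 19675 protein-coding genes with a known strand, chosen by name: 15 GABA-A receptor subunits (GABR genes), 4 AMPA (GRIA), 5 kainate (GRIK), 7 NMDA (GRIN) and 1 delta (GRID1) subunit of the ionotropic glutamate receptors, and 7 metabotropic glutamate receptors (GRM genes). V16D is a castration-resistant prostate cancer cell line derived from LNCaP, a luminal prostate cancer line. The cells carried a control lentivector (V16D/CTL) or a lentivector for overexpression of H19, a long non-coding RNA (V16D/H19), and H3K4me3 and H3K27me3 were each mapped by ChIP-seq in 3 biological replicates per group. Both groups therefore shared the parental line and lentiviral transduction, and a single line limits both as a model.

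GABA-A receptors are chloride channels built from several subunits and are the main fast inhibitory receptors of the brain. AMPA, kainate and NMDA receptors are the cation channels of fast excitatory transmission, and the GRM genes encode G protein-coupled receptors that tune it. Most of these genes are used by neurons and kept silent in epithelia, where Polycomb complexes often cover their CpG-rich promoters with H3K27me3. H3K4me3 marks promoters that are active or held ready, and a promoter that carries both marks is termed bivalent. Because each mark was mapped in a bulk population, both marks at a promoter may lie on the same nucleosomes or in different cells, and these cannot be told apart. No RNA was measured in the files used here, so nothing below is a statement on expression.

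A peak list was available for each of the 12 ChIP libraries. H3K27me3 lists held 55060 to 72289 peaks in V16D/CTL (45.1 to 62.2 Mb covered) and 56239 to 62879 peaks in V16D/H19 (42.3 to 48.4 Mb covered). H3K4me3 lists held 20094 to 21168 and 20048 to 21934 peaks, respectively. Markers of the labelled cell type were checked first. All 7 luminal prostate markers (KLK2, KLK3, TMPRSS2, KRT8, KRT18, ABCC4, FKBP5) had an H3K4me3 promoter peak in all 6 libraries, whereas none of 3 basal and none of 3 leukocyte markers had one in any library. KLK2 nevertheless had lower H3K4me3 coverage in V16D/H19 (2.05 ± 0.0265 kb) than in V16D/CTL (2.785 ± 0.185 kb, SD, n = 3 each, limma adjusted p = 0.0359). TMPRSS2 went the other way, at 8.56 ± 0.452 kb in V16D/H19 and 6.64 ± 0.766 kb in V16D/CTL (limma adjusted p = 0.155). The deposited table of differential H3K4me3 listed KLK2 and ABCC4 lower and TMPRSS2 higher. The median log2 difference over the 7 luminal markers, V16D/H19 minus V16D/CTL, was 0.02. Of 6 neuroendocrine and neuronal markers, SYP, ENO2 and RBFOX3 had an H3K4me3 promoter peak in all 6 libraries. A mark was then counted for a group when at least 2 of 3 libraries held it. CHGB (H3K4me3 in 0 V16D/CTL and 2 V16D/H19 libraries) and NCAM1 (1 and 2) went from H3K27me3 only to both marks. ENO2 went from both marks to H3K4me3 only, and CHGA had H3K27me3 only. H3K27me3 coverage of RBFOX3 was 297 ± 25.8 kb in V16D/CTL and 221 ± 4.82 kb in V16D/H19 (limma adjusted p = 0.229). The deposited table of differential H3K27me3 listed RBFOX3 lower. The part of such markers in the results below was not tested. No peak of either mark lay within 10 kb of H19 itself in any of the 12 lists, so that locus gave no check of the labels. Read depth was not used, and a missing peak is not read as an absent mark.

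A promoter was taken as the stretch within 1 kb of the RefSeq transcription start. H3K27me3 peaks were found at 27, 25 and 29 of the 39 receptor promoters in the V16D/CTL replicates, compared with 25, 26 and 25 in V16D/H19. That is 64.1 to 74.4% of the receptor genes, where 9.12 to 11.5% of all protein-coding genes carried such a peak. H3K4me3 showed the opposite order. It was present at 12, 11 and 12 receptor promoters of the V16D/CTL libraries, compared with 15, 18 and 15 of V16D/H19 (28.2 to 46.2%), against 62.1 to 63.3% of all genes.

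The number of receptor promoters with H3K4me3 was therefore higher in every V16D/H19 library than in any V16D/CTL library, at 16 ± 1.73 against 11.7 ± 0.577 (SD, n = 3 each). Over all genes the number moved from 12242 ± 27.7 to 12361 ± 108, and the groups overlapped. Both marks were called in the same-numbered libraries at 9, 7 and 10 receptor promoters of V16D/CTL, and at 12, 14 and 11 of V16D/H19, again without overlap. Over all genes the mean fell from 1095 ± 62.3 to 1030 ± 57.0, with overlap. With the stricter peak threshold of −log10 q of at least 3, the H3K4me3 difference stayed at 4.33 promoters, but the mean number with both marks was 4.67 in both groups. Fewer H3K27me3 peaks passed that threshold in V16D/H19 (3269 to 4065) than in V16D/CTL (6129 to 6718).

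**Figure D1:**
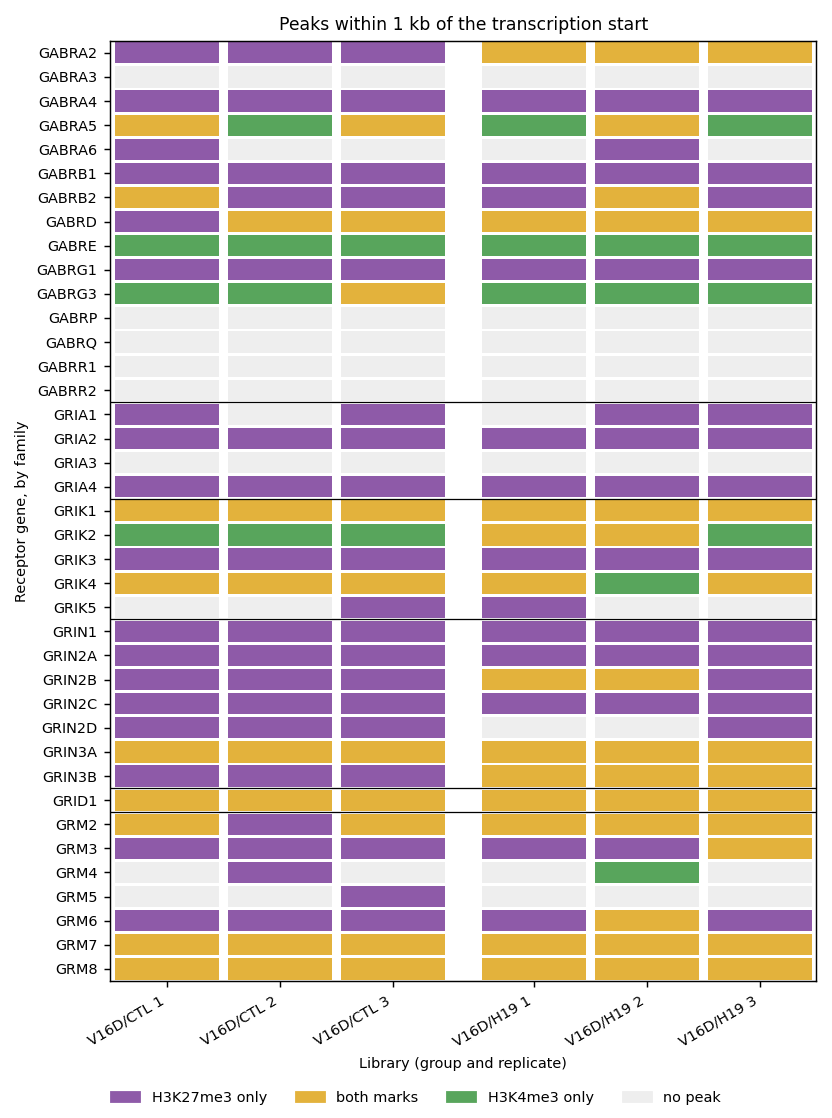
Peaks within 1 kb of the transcription start of each receptor gene (rows, by family) in each library (columns). Purple tiles mark H3K27me3 only, yellow tiles both marks, green tiles H3K4me3 only and grey tiles no peak; GABRA2 and GRIN3B are purple in the 3 V16D/CTL libraries and yellow in the 3 V16D/H19 libraries.

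Each promoter was then assigned a state from the marks held in at least 2 of the 3 libraries of a group. In V16D/CTL, 17 receptor genes had H3K27me3 only, 9 both marks, 3 H3K4me3 only and 10 neither. In V16D/H19 these numbers were 13, 12, 3 and 11. The state differed between groups at 6 of 39 receptor genes, against 4.24% of all protein-coding genes. Most of all genes, however, had H3K4me3 only or neither mark in V16D/CTL, and these seldom changed (11060 of 11175 and 6237 of 6411 kept). H3K27me3 only was kept at 13 of 17 receptor genes and at 704 of 1024 among all genes. Both marks were kept at 8 of 9 and at 839 of 1065. Set beside genes of the same starting state, the receptor genes thus did not change more often in these 2 states. GABRA2, GRIN2B and GRIN3B went from H3K27me3 only to both marks, and GRIK2 from H3K4me3 only to both marks. GABRA5 went from both marks to H3K4me3 only, and GRIN2D from H3K27me3 only to neither.

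The promoter sequences below were chosen to show these states, as the 250 bases upstream of the RefSeq start, 5′ to 3′ on the gene's strand, with CG dinucleotides in capitals (RefSeq, GRCh38.p14). GABRA2 (chr4:46390301-46390550, minus strand), GRIN2B (chr12:13982135-13982384, minus) and GRIN3B (chr19:1000169-1000418, plus) are the 3 promoters where H3K4me3 was held only in V16D/H19. GRM8 (chr7:127252942-127253191, minus) and GRIK4 (chr11:120511498-120511747, plus) carried both marks in both groups. GRM3 (chr7:86643659-86643908, plus) and GABRA6 (chr5:161685471-161685720, plus) lie in sites of the deposited table of differential H3K27me3. GRIK3 (chr1:37034516-37034765, minus), with H3K27me3 only, and GABRE (chrX:151974677-151974926, minus), with H3K4me3 only, were added for contrast after their values were seen.
GABRA2: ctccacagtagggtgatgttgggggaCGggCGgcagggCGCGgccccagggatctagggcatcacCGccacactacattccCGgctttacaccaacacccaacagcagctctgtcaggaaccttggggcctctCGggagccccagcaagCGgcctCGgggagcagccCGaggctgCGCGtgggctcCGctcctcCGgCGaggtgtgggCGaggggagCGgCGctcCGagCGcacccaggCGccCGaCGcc
GRIN2B: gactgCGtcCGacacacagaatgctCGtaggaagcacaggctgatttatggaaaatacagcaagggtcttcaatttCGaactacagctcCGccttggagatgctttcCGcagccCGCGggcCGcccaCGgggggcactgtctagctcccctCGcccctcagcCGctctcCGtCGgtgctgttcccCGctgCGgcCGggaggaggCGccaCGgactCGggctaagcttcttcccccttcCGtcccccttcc
GRIN3B: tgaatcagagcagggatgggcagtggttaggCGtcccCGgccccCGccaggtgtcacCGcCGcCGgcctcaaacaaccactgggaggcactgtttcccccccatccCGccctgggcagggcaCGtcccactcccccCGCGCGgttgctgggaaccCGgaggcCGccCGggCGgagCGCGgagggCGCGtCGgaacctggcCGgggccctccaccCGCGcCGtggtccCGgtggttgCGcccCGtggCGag
GRM8: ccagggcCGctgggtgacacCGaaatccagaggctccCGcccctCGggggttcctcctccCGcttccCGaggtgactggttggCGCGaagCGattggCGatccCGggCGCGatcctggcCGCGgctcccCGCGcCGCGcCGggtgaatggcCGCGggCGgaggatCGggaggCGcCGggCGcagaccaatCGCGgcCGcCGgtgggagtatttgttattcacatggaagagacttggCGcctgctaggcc
GRIK4: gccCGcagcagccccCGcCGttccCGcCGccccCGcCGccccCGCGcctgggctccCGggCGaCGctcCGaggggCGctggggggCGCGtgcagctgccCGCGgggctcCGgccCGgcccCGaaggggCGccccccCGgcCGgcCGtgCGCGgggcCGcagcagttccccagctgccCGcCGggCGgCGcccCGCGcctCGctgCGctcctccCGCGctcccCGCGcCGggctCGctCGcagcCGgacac
GRM3: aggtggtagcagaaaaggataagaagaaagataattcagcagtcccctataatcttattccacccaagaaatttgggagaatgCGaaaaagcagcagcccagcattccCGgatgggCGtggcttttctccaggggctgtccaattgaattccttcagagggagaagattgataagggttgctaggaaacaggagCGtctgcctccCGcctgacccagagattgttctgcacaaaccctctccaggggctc
GRIK3: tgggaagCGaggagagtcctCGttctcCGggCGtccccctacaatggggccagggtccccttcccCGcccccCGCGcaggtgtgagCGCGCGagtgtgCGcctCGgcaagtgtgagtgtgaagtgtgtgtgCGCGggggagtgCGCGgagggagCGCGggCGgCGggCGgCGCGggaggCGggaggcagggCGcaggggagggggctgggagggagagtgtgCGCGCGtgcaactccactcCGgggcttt
GABRE: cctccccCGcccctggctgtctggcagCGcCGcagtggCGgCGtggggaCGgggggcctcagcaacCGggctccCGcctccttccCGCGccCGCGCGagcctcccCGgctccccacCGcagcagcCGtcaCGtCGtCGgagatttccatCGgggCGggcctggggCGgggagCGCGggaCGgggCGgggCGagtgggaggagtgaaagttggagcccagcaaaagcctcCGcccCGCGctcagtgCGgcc
GABRA6: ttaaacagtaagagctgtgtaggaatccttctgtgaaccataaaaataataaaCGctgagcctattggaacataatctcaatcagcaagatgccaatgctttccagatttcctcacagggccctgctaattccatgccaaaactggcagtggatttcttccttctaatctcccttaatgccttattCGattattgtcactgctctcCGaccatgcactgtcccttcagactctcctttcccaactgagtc

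GABRA6 held 3 CG dinucleotides in these 250 bases and GRM3 held 5, whereas the 3 promoters that gained H3K4me3 held 23, 21 and 28. GRIK3, with no H3K4me3 in any library, held 29, and GABRE, with no H3K27me3 in any library, held 31. A window of 300 bases around the RefSeq start (250 before, 50 after) was in the reference table for 24 of the 39 genes. Its median CG count was 34 for the 5 receptor promoters with both marks in V16D/CTL, 33 for the 3 with H3K4me3 only, 11 for the 11 with H3K27me3 only and 12 for the 5 with neither. Over all protein-coding genes the medians were 31, 27, 12 and 5 in the same order. The letters TTCAGCACC, the left part of the RE1 element bound by the neuronal repressor REST, occurred on either strand in 1 of the 24 windows (GRM2), against 0.427% of all 13820 windows. GGACAGC, from the right part of RE1, occurred in 4 (GRM2, GRM3, GABRG3 and GABRQ), against 6.90%. Such a match is not a binding site.

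H3K4me3 was gained at 2 receptor promoters, GABRA2 and GRIN3B, when a gain was counted as a peak in all 3 V16D/H19 libraries and in no V16D/CTL library, and 0.213% of all genes met this rule. Promoters with H3K4me3 in V16D/CTL could not meet it, on average 11.7 of the 39 receptor genes but 12242 of all 19675 genes. The share over all genes is thus not matched for the starting state. None of the 39 lost H3K4me3 by the reverse rule, which 0.0254% of all genes met. None gained or lost H3K27me3 by the same rules, where 0.0559% and 0.29% of all genes did.

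GABRA2 (chromosome 4, 46243548 to 46390300, minus strand) encodes the alpha 2 subunit, which shapes the response of GABA-A receptors to benzodiazepines. Within 1 kb of its start, H3K4me3 peaks of 4.35-, 5.96- and 4.74-fold over input were present in the V16D/H19 replicates, and none in V16D/CTL. H3K27me3 peaks were present there in all 6 libraries, at 4.20-, 4.22- and 3.86-fold in V16D/CTL and 3.94-, 3.95- and 3.90-fold in V16D/H19. The groups thus separated by H3K4me3 and overlapped in H3K27me3. The deposited table of differential H3K4me3 listed this promoter (46388599 to 46390481) with a concentration, the log2 of the mean normalised read count, of 0.77 in V16D/CTL and 4.12 in V16D/H19. It was the only H3K4me3 site listed for a receptor gene. Sites listed higher were assigned to 1.74% of all protein-coding genes, and sites listed lower to 5.38%.

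GRIN3B (chromosome 19, 1000419 to 1009732, plus strand) encodes an NMDA subunit that lowers the calcium flow of the channel. Its promoter carried H3K4me3 peaks of 5.81-, 5.96- and 5.67-fold in V16D/H19, none in V16D/CTL, and H3K27me3 peaks of 3.48- to 4.92-fold in all 6 libraries. The merged H3K4me3 region (1000257 to 1000719) spanned the transcription start.

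GRIN2B (chromosome 12, 13537337 to 13982134, minus strand) encodes the NMDA subunit that predominates early in brain development. H3K4me3 covered 0, 0 and 0 kb of its window in V16D/CTL and 0.814, 0.822 and 0.416 kb in V16D/H19. The window ran from 3 kb upstream of the start to the end of the gene, here and below. In replicates 1 and 2 of V16D/H19 the peaks reached the 1 kb promoter window (5.81- and 5.68-fold), and in replicate 3 the peak lay further into the gene. Around a further RefSeq start of GRIN2B, 1.29 kb into the gene, all 3 V16D/H19 libraries and no V16D/CTL library had H3K4me3, and all 6 had H3K27me3. The H3K27me3 peaks at the GRIN2B start were 4.61-, 6.41- and 4.72-fold in V16D/CTL and 4.15-, 4.59- and 4.55-fold in V16D/H19.

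The H3K4me3 peaks at these 3 promoters were low in every library that had them, since the median promoter peak over all genes was 42.5- to 49.0-fold over input. Single libraries held comparable peaks elsewhere. GRM3 had an H3K4me3 promoter peak only in V16D/H19 replicate 3 (4.86-fold), and GRM6 and GRM4 only in V16D/H19 replicate 2 (4.88- and 5.42-fold). GRM2, a receptor that dampens glutamate release, had peaks of 5.36- and 4.87-fold in V16D/CTL replicates 1 and 3 and of 7.98-, 7.81- and 4.07-fold in V16D/H19. GABRD, the delta subunit of receptors outside the synapse, had none in V16D/CTL replicate 1, 15.9- and 7.91-fold peaks in replicates 2 and 3, and 8.52-, 12.6- and 5.62-fold peaks in V16D/H19. GABRB2, the beta 2 subunit, had a peak that reached the promoter window in V16D/CTL replicate 1 (13.1-fold) and V16D/H19 replicate 2 (17.3-fold) only.

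At the remaining promoters with any H3K4me3 peak, the mark was present in all 6 libraries. GABRE, the epsilon subunit, was the only receptor gene with H3K4me3 in all 6 libraries and no H3K27me3 in its window in any, with peaks of 36.96-, 29.2- and 20.3-fold in V16D/CTL and 23.9-, 33.2- and 27.8-fold in V16D/H19. GABRG3 and GABRA5, neighbouring genes on chromosome 15 that encode the gamma 3 and alpha 5 subunits, also had H3K4me3 in every library. Those of GABRG3 were 25.3-, 22.6- and 47.4-fold in V16D/CTL and 43.5-, 42.9- and 26.9-fold in V16D/H19, and the groups overlapped. Those of GABRA5 were 34.0-, 26.4- and 36.4-fold against 30.4-, 27.5- and 35.1-fold, again overlapping. H3K27me3 at these 2 promoters was scattered, in 3 of 6 libraries at GABRA5 and in 1 of 6 at GABRG3.

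Both marks were present in all 6 libraries at GRM7, GRM8, GRIN3A, GRID1 and GRIK1. GRM8, a presynaptic receptor, had H3K4me3 peaks of 27.3-, 22.9- and 34.9-fold in V16D/CTL and 18.5-, 15.1- and 29.99-fold in V16D/H19. GRM7, which is also presynaptic, had lower peaks of 10.3-, 11.5- and 13.2-fold against 6.44-, 14.5- and 4.79-fold. These values overlapped between the groups, as did those of the other 3. GRIN3A, an NMDA subunit related to GRIN3B, had 23.8-, 18.6- and 7.19-fold peaks in V16D/CTL and 21.5-, 14.9- and 8.58-fold peaks in V16D/H19. GRID1, a synapse-organising protein, had 11.4-, 13.3- and 15.3-fold against 18.0-, 22.1- and 14.2-fold peaks. GRIK1, a kainate subunit, had 6.82-, 7.45- and 7.84-fold against 11.2-, 11.9- and 6.80-fold peaks. The groups overlapped at each of these genes. GRIK4 had H3K4me3 of 20.5-, 12.3- and 12.9-fold in V16D/CTL and 26.4-, 15.6- and 16.7-fold in V16D/H19, and H3K27me3 at the start in 5, all but V16D/H19 replicate 2. GRIK2, the widely expressed kainate subunit, had H3K4me3 of 22.9-, 31.7- and 14.2-fold in V16D/CTL and 21.3-, 37.3- and 21.2-fold in V16D/H19. H3K27me3 joined it at the start in V16D/H19 replicates 1 and 2 (3.28- and 4.18-fold) and in no other library.

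**Figure D2:**
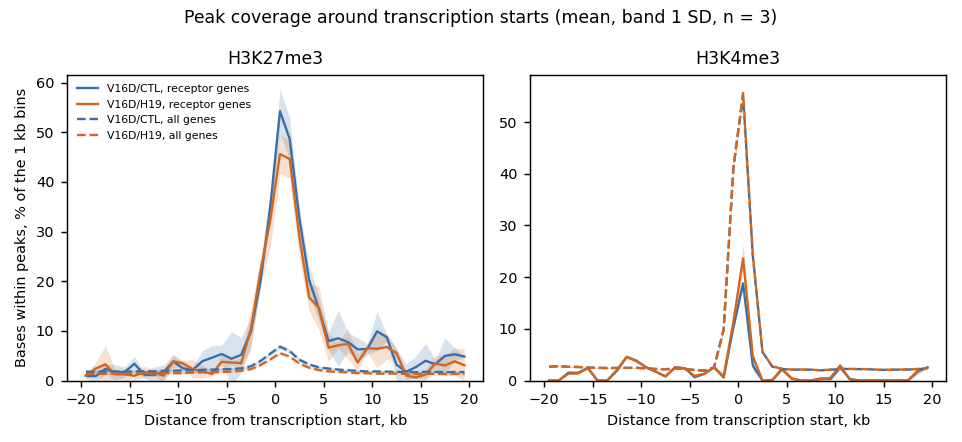
Share of bases within peaks in bins of 1 kb from 20 kb upstream to 20 kb downstream of the transcription start (x axis), for H3K27me3 (left) and H3K4me3 (right). Solid lines are the 39 receptor genes and dashed lines all protein-coding genes, blue V16D/CTL and orange V16D/H19, as means of 3 libraries with bands of 1 SD; H3K27me3 peaks in the first kb at 54.2% and 45.6% for the receptor genes.

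Around the start, H3K27me3 at the receptor genes was densest just inside the gene. In the first kb of the gene, 54.2% ± 4.42 of bases lay within H3K27me3 peaks in V16D/CTL and 45.6% ± 3.97 in V16D/H19 (SD, n = 3), against 6.81% ± 0.52 and 5.52% ± 0.27 over all genes. In the kb before the start, the receptor genes held 35.1% ± 1.93 and 32.3% ± 5.61. H3K4me3 covered 18.8% ± 0.62 of the first kb in V16D/CTL and 23.6% ± 2.83 in V16D/H19, where all genes stood at 55.2% ± 0.17 and 55.6% ± 0.74.

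The whole gene windows held 9.85 Mb, with a median of 150 kb per receptor gene against 27.8 kb per protein-coding gene. H3K27me3 peaks covered 3.77% ± 0.629 of the receptor windows in V16D/CTL and 3.45% ± 0.377 in V16D/H19 (SD, n = 3), and the groups overlapped. Of the 39 genes, 29 had an H3K27me3 peak in the window in all 6 libraries, 4 in some, and 6 in none: GABRE, GABRP, GABRQ, GABRR1, GABRR2 and GRIA3. GABRP, GABRQ, GABRR1, GABRR2 and GRIA3 had no peak of either mark in any library. GABRP is an epithelial GABA-A subunit, GABRR1 and GABRR2 are the rho subunits of the retina, and GRIA3 is an X-linked AMPA subunit. GABRA3, the X-linked alpha 3 subunit, had no H3K4me3 and at most 1.02 kb of H3K27me3.

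H3K27me3 was widest, as a share of the window, at GRIN2C, GRIN3B, GABRD, GRIK3 and GRIN1. GRIN2C (chromosome 17, 74842023 to 74861532, minus strand), the NMDA subunit typical of the cerebellum, was covered over 8.35, 11.3 and 11.0 kb in V16D/CTL and 8.86, 8.65 and 9.91 kb in V16D/H19. This was 42.9% of its window on average over the 6 libraries, and the groups overlapped. GRIK3 (chromosome 1, 36795527 to 37034515, minus strand), a kainate subunit, had the longest coverage in kb, with 45.9, 52.1 and 63.6 kb in V16D/CTL and 51.1, 58.4 and 63.0 kb in V16D/H19 (23.01% of the window). GRIN1, the obligate NMDA subunit, was covered over 7.58, 7.46 and 6.67 kb in V16D/CTL and 4.20, 6.46 and 6.54 kb in V16D/H19, where every V16D/H19 value was the lower. GABRD was covered over 3.14, 3.98 and 4.84 kb in V16D/CTL and 2.96, 2.58 and 2.45 kb in V16D/H19, again without overlap. GRIN3B was covered over 2.63, 2.14 and 3.56 kb against 3.15, 2.32 and 3.39 kb, with overlap.

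**Figure D3:**
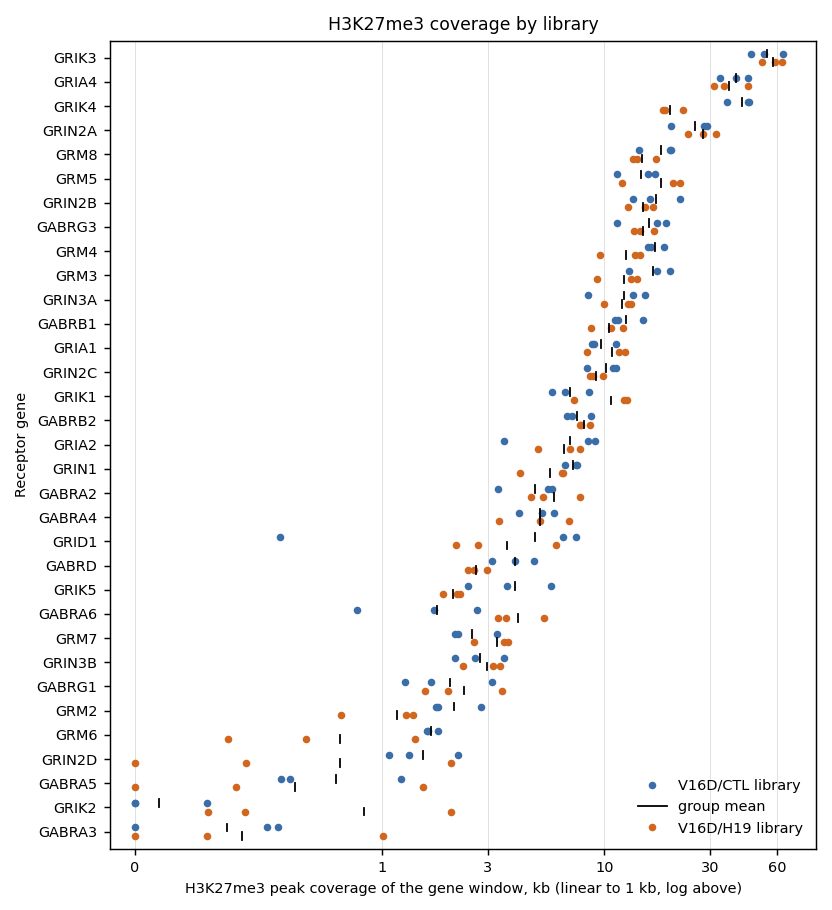
H3K27me3 peak coverage of the gene window in kb (x axis, linear to 1 kb and logarithmic above) for the 33 receptor genes with any coverage (rows). Each point is a library, blue V16D/CTL and orange V16D/H19, and black bars are group means; GRIK4 is the gene with the clearest separation, at 35.7 to 44.8 kb in V16D/CTL and 18.3 to 22.6 kb in V16D/H19.

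To compare the groups, log2(covered kb + 0.5) was fitted with limma for every gene whose window held the mark in 3 or more of its 6 libraries, with Benjamini-Hochberg adjustment over all genes tested. For H3K27me3, 3999 genes were tested, and coverage was lower in V16D/H19 at 1.9% and higher at 0.125% of them (adjusted p under 0.05). All 33 receptor genes with any coverage were among those tested. GRIK4 was lower, and none was higher. At an unadjusted p under 0.05, 3 of the 33 were lower (GRM4, GRIK4 and GRIK5) and 2 higher (GABRA6 and GRIK1). Of all 3999 genes tested, 713 were lower and 99 higher at this level. The median log2 difference, V16D/H19 minus V16D/CTL, was −0.04 over the 33 receptor genes and −0.27 over all genes tested, and 23 of the 33 lay above the latter. Scaling each library to its covered total moved the median of all genes to −0.08 and that of the receptor genes to 0.19. It also moved the genes called over all windows from 76 lower and 5 higher to 96 and 86. With the stricter peak threshold the order of the medians reversed. They were then −0.99 over 22 receptor genes and −0.92 over 1571 genes tested, and 10 of the 22 lay above the latter. Without regard to size, 7 of the 33 had lower coverage in every V16D/H19 library than in any V16D/CTL library (GABRD, GRM2, GRM6, GRM4, GRIN1, GRIK4 and GRIK5), against 21.9% of all genes tested. The reverse held for GABRA6 and GRIK2, against 3.33%. At GRIK2 the lowest V16D/H19 value was 0.295 kb and the highest V16D/CTL value 0.294 kb. The lower count is thus near the background.

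GRIK4 (chromosome 11, 120511748 to 120988906, plus strand) encodes a high-affinity kainate subunit. H3K27me3 covered 35.7, 44.8 and 44.5 kb of its 480 kb window in V16D/CTL and 18.3, 18.7 and 22.6 kb in V16D/H19, so that the groups did not overlap. The log2 difference was −1.05 ± 0.16 (SE, limma, adjusted p = 0.0179). Coverage was lower in V16D/H19 in each of the 4 bins of 100 kb that held most of it. From 3 kb upstream to 100 kb downstream of the start, coverage was 13.6 ± 3.53 kb in V16D/CTL and 6.53 ± 1.54 kb in V16D/H19 (SD, n = 3). Between 200 and 300 kb it was 10.6 ± 1.49 and 4.55 ± 0.661 kb, and between 300 and 400 kb 15.4 ± 2.01 and 7.38 ± 1.73 kb. H3K4me3 over the same window was 1.57, 1.19 and 1.66 kb in V16D/CTL and 1.68, 1.74 and 1.505 kb in V16D/H19 and did not pass the test (log2 difference 0.13 ± 0.10, limma adjusted p = 0.746). The call was lost when V16D/CTL replicate 2 or 3 or V16D/H19 replicate 1 or 2 was left out (limma adjusted p = 0.0517 to 0.104) and when the 3 kb upstream were left out (0.0844), while the log2 difference stayed between −1.05 and −0.99 in these fits.

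A site within the GRIK4 intron was also in the deposited table of differential H3K27me3 (120790141 to 120797515, 278 to 286 kb from the start). Its concentration was 6.68 in V16D/CTL and 6 in V16D/H19. The peaks of the lists covered 3.72, 4.65 and 4.39 kb of this site in V16D/CTL and 0.361, 1.41 and 1.80 kb in V16D/H19.

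**Figure D4:**
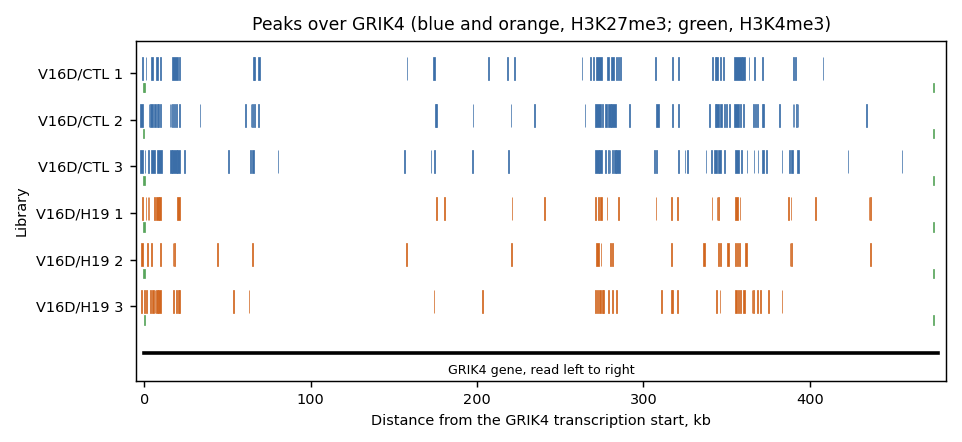
Peaks over GRIK4 by distance from its transcription start in kb (x axis), one line per library. Blue (V16D/CTL) and orange (V16D/H19) blocks are H3K27me3 peaks, small green blocks H3K4me3 peaks, and the black bar is the gene; coverage between 300 and 400 kb falls from 15.4 to 7.38 kb on average, while H3K4me3 stays at the start and near the end of the gene.

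The table of differential H3K27me3 held sites of 5 receptor genes, GRIK4 included. Sites listed lower were assigned to 3.04% of all protein-coding genes and to GRIK4, GRM3, GABRG3 and GRIK3, whereas sites listed higher were assigned to 0.224% and to GABRA6. GRM3, a presynaptic and glial glutamate receptor, was listed at its promoter (chromosome 7, 86639350 to 86647403) with a concentration of 7.01 in V16D/CTL and 6.14 in V16D/H19. Peaks covered 4.33, 2.51 and 3.63 kb of the site in V16D/CTL and 1.43, 1.86 and 2.70 kb in V16D/H19, which overlapped. Over the whole GRM3 window coverage was 12.9, 19.7 and 17.3 kb against 9.32, 14.1 and 13.3 kb and did not pass the test (log2 difference −0.43 ± 0.21, limma adjusted p = 0.268).

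GABRA6 (chromosome 5, 161685721 to 161702592, plus strand) encodes the alpha 6 subunit of cerebellar granule cells and moved the other way. Its listed site (161682605 to 161696826) reached from 3.12 kb before to 11.1 kb after the start, with a concentration of 6.65 in V16D/CTL and 7.18 in V16D/H19. H3K27me3 covered 0.901, 2.68 and 1.73 kb of the gene window in V16D/CTL and 3.60, 3.31 and 5.38 kb in V16D/H19. Its peaks reached within 1 kb of the start only in V16D/CTL replicate 1 and V16D/H19 replicate 2. Coverage of the window did not overlap between the groups, but the difference did not pass the test across all genes (log2 1.07 ± 0.36, limma adjusted p = 0.131). With each library's coverage scaled to its covered total, GABRA6 (adjusted p = 0.0359) and the kainate subunit GRIK1 (0.0297) were called higher by limma. GRIK1 coverage was 5.85, 8.58 and 6.70 kb in V16D/CTL and 7.32, 12.7 and 12.3 kb in V16D/H19, which overlapped.

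The other 2 listed sites lay outside the gene windows and carried these symbols only through the deposited annotation. The GABRG3 site (chromosome 15, 27631581 to 27640917) began 89.6 kb past the end of the gene, with a concentration of 7.23 in V16D/CTL and 6.69 in V16D/H19. Peaks covered 4.96, 7.41 and 7.57 kb of it in V16D/CTL and 3.11, 2.03 and 3.90 kb in V16D/H19. The GRIK3 site (chromosome 1, 36701836 to 36713776) lay 81.8 kb past the end of the gene, with 7.64 and 7.18, and peaks covered 5.79, 7.87 and 8.74 kb of it against 5.45, 6.87 and 6.36 kb. The groups were separated at the first site and overlapped at the second. Within the gene windows themselves, GABRG3 and GRIK3 did not pass the test (limma adjusted p = 0.899 and 0.775).

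For H3K4me3, 13836 genes were tested with limma, of which 0.145% were lower and 0.231% higher in V16D/H19. Of the 39 receptor genes 22 passed the filter, and none was called at an adjusted p under 0.05. At an unadjusted p under 0.05, 6 of the 22 were higher (GABRA2, GABRB1, GRM4, GRM8, GRIN2B and GRIN3B) and 1 lower (GRIK5). Of all 13836 genes tested, 860 were higher and 519 lower at this level. GRIN2B was nearest to the threshold, with a log2 difference of 1.22 ± 0.20 (SE, limma adjusted p = 0.0522), and it was called without the filter (0.0358) and with coverage scaled to the library's total (0.0278). GRIN3B (0.78 ± 0.21, limma adjusted p = 0.224) and GABRA2 (0.87 ± 0.29, limma adjusted p = 0.346) did not pass in any alternative that tested them. GRIN2B and GRIN3B passed the filter only through their 3 V16D/H19 libraries. Their V16D/CTL values were all 0 kb, so the spread within groups came from V16D/H19 alone. Their p-values, and the calls of GRIN2B, are therefore not read as support for a difference. Coverage was higher without overlap at 6 receptor genes (GRM2, GABRB1, GRM4, GRM8, GRIN2B and GRIN3B), against 8.58% of the genes tested. At GRIN2B and GRIN3B the filter fixed this outcome, since no V16D/CTL library was covered, so their separation carries no weight. At GRM2 the lowest V16D/H19 value was 0.238 kb and the highest V16D/CTL value 0.237 kb. Coverage was lower without overlap at none of the receptor genes, against 6.06%.

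**Figure D5:**
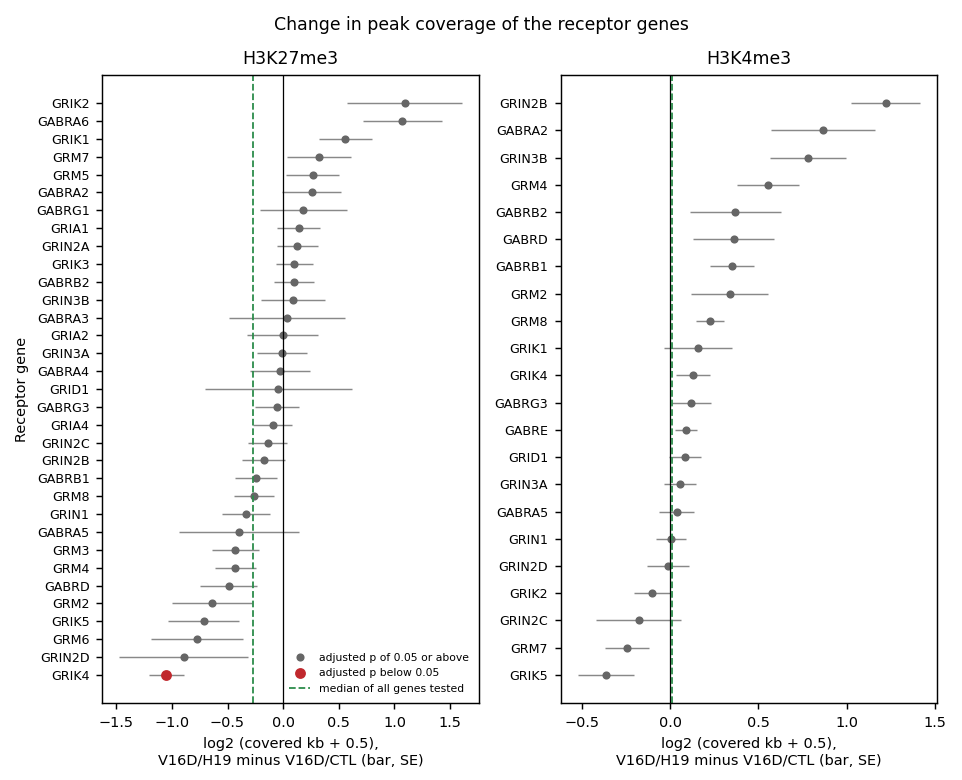
Difference in log2(covered kb + 0.5), V16D/H19 minus V16D/CTL (x axis), for the 33 receptor genes tested for H3K27me3 (left) and the 22 tested for H3K4me3 (right). Points are estimates with bars of 1 SE, red marks an adjusted p below 0.05, and the dashed green line is the median of all genes tested (−0.27 and 0.01); GRIK4 alone is red, at −1.05.

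Some receptor genes carried H3K4me3 inside the gene rather than at the outermost start. GABRB1, the beta 1 subunit, shares a divergent promoter with GABRA4, and this promoter held H3K27me3 in all 6 libraries and H3K4me3 in none. A further RefSeq start 37.9 kb into GABRB1 held both marks in all 6. H3K4me3 over the GABRB1 window was 0.928, 1.06 and 1.16 kb in V16D/CTL and 1.92, 1.3 and 1.25 kb in V16D/H19, without overlap, but did not pass the test (limma adjusted p = 0.374). GRM4 likewise held H3K4me3 in all 6 libraries around a start 9.54 kb into the gene, where H3K27me3 was present in 3 V16D/CTL and 2 V16D/H19 libraries. GABRB2 held both marks in all 6 libraries at a start 1.68 kb into the gene. When any RefSeq start counted, which was added after the data were seen, H3K4me3 was at 14.3 receptor genes on average in V16D/CTL and 18.7 in V16D/H19.

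Some internal H3K4me3 regions lay at the starts of neighbouring genes. At GRIN1 a region near the end of the gene overlapped the start of LRRC26, and at GRIN2D a region at the end overlapped the start of GRWD1 and another lay 146 bases from the start of KDELR1. GRIN1 itself, with H3K27me3 in all 6 libraries at its start (3.78- to 4.38-fold), had a further H3K4me3 region 10.4 kb inside the gene in all 6. Regions in all 6 libraries that overlapped no gene start also lay 474 kb into GRIK4, 405 kb into GABRB1 and 22.3 kb into GABRA5. Others lay 18.3 kb into GRIN2C and 20.4 kb into GRIK5. GRIN2D, an NMDA subunit, had H3K27me3 at its start in 3 V16D/CTL libraries (3.69-, 3.34- and 3.197-fold) and in V16D/H19 replicate 3 alone (3.08-fold). An H3K4me3 region of up to 53.9-fold lay 1.70 kb before the GRIN2D start in all 6 libraries. It fell outside the 1 kb promoter and is not part of the state given for GRIN2D.

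By family, the NMDA subunits changed state most often by count. Of the 6 NMDA subunits with H3K27me3 only in V16D/CTL, 3 kept that state, against 704 of 1024 among all protein-coding genes. With so few genes, a trait of the family cannot be read from this. All 7 NMDA subunits held H3K27me3 at the start in V16D/CTL, with GRIN3A alone also holding H3K4me3. In V16D/H19 3 held both marks (GRIN2B, GRIN3A, GRIN3B), 3 H3K27me3 only and 1 neither. Of the 4 AMPA subunits, GRIA1, GRIA2 and GRIA4 held H3K27me3 only and GRIA3 neither mark, in both groups. GRIA4 was covered over 31.2 to 44.4 kb in the 6 libraries. Of the 15 GABA-A subunits, 5 held H3K27me3 only, 2 both marks, 2 H3K4me3 only and 6 neither in V16D/CTL. Of the 7 metabotropic receptors, GRM2, GRM7 and GRM8 held both marks in both groups, GRM3 and GRM6 H3K27me3 only, and GRM4 and GRM5 neither at the outermost start. Within the GRM5 window, however, H3K27me3 covered 11.5 to 21.8 kb.

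A further 34 genes of GABA and glutamate signalling were examined, for synthesis, transport and scaffolding and including GABBR1 and GABBR2, the metabotropic GABA receptor subunits. In V16D/CTL, 14 of their promoters held H3K4me3 only, 8 H3K27me3 only, 5 both marks and 7 neither, so H3K4me3 was at 19 of 34, GABBR1 and GABBR2 among them, and at 12 of the 39 receptor genes above. For H3K27me3 17 were tested with a median log2 difference of −0.37, for H3K4me3 26 with 0.02, and none was called for either mark. Some of the 34 had sites in the deposited tables, and those given here were named after their values were seen. H3K27me3 was listed lower at GAD1 and GAD2, which make GABA, at the vesicular GABA transporter SLC32A1 and at the glutamate transporter SLC1A2. H3K4me3 was listed higher at GABBR2, GLS2 and DLG4, and lower at HOMER1.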

How the data were processed

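H3K4me3 and H3K27me3 were mapped by ChIP-seq (75 bp single-end reads) in V16D/CTL and V16D/H19 cells, 3 biological replicates each. Per the study's methods, the authors called peaks with MACS2 in each replicate against its own input, narrow for H3K4me3 and broad for H3K27me3. The deposited peak lists hold a score, a fold enrichment over input, and −log10 p and −log10 q values for each peak. The deposited DiffBind tables list differential sites with a log2 concentration for each group, the authors' mean over replicates, annotated with ChIPseeker. Their fold, p and FDR columns were not used. The build is hg38 per the submitters' processing notes, and tool versions are not given in the sources used here. Input libraries, reads and the read depths that the study lists were not used here, and the number of libraries limits the precision.

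Covered kb were summed per gene window (3 kb upstream of the RefSeq start to the gene end) and compared as log2(kb + 0.5) with limma 3.58.1 (R 4.3.3), without a replicate block, for genes covered in at least 3 of 6 libraries. The code was tested on simulated data. Values per library are given for receptor genes called, listed in a deposited table, or with an H3K4me3 promoter peak in any library, and for the 5 with the widest H3K27me3 share. The members, lists and tests were chosen with earlier results of these data known. Of 45 genes matched by the family names, 6 are not reported here. Alternatives were another pseudocount (0.1 kb), no filter, −log10 q of at least 3, lists of equal length, scaled coverage, gene body only, a replicate block, other promoter definitions (2.5 kb, a 200-base overlap, any RefSeq start) and each replicate left out.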

Additional observations from a re-analysis of the deposited data

How the results depend on the processing

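Of the receptor genes, 1 (GRIK4) was called lower for H3K27me3. This became 2 (GRIK4 and GRM5) with the stricter threshold and 0 with the gene body only, where limma called 0 genes of all tested, and it ranged from 0 to 1 with a replicate left out. It was 0 without V16D/CTL replicate 2 or 3 or V16D/H19 replicate 1 or 2. The number called higher for H3K27me3 went from 0 to 2 (GABRA6 and GRIK1) with scaled coverage, and for H3K4me3 from 0 to 1 (GRIN2B) without the filter and to 1 with scaled coverage. No V16D/CTL library had H3K4me3 coverage at GRIN2B, so these calls of GRIN2B are not read as support for a difference. With the stricter threshold the log2 difference reversed to −1.27 at GRIK1 and −2.99 at GRM5 (limma adjusted p = 0.0165), and the promoter difference became −5 for H3K27me3 and 0 for both marks. The H3K4me3 promoter difference stayed between 3.33 and 4.83 in all alternatives. GRIN2B and GRIN3B could not be tested with a V16D/H19 replicate left out, as they then missed the filter. The cause of these changes was not tested. Over all genes, H3K27me3 calls (lower, higher) were 76 and 5. They became 221 and 1 with the stricter threshold, 153 and 25 with lists of equal length, 96 and 86 with scaled coverage, and 35 and 1 with the smaller pseudocount. With a replicate left out, lower calls ranged from 3 to 339, the most without V16D/CTL replicate 1. H3K4me3 calls, 20 and 32, became 36 and 65 with scaled coverage and 9 and 22 with the gene body only. With a replicate left out they ranged from 3 to 14 lower and from 5 to 40 higher. Deviations of single genes were not correlated between same-numbered libraries (Pearson r from −0.04 to 0.00). This comparison cannot show a shift shared by whole libraries. The H3K27me3 length covered rose with the replicate number in both groups (45.1, 58.8 and 62.2 Mb in V16D/CTL, 42.3, 47.5 and 48.4 Mb in V16D/H19). Pairing by number was thus neither shown nor excluded, and the main fit used no block. With the replicate block, calls were 283 and 27 for H3K27me3 and 5 and 17 for H3K4me3, while the receptor genes called stayed at 1 (GRIK4) and 0. Peak lists give called length, not read counts, so a change close to the calling threshold cannot be sized here.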
